A study of Arabidopsis thaliana with 24 samples.

Results

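The nuclear genes for light-harvesting and photosystem proteins of Arabidopsis thaliana were followed in seedlings with and without the transcription factor bZIP68. There were 46 such genes among the 18430 of the count table. They were taken by gene identifier: 6 LHCA genes for the antenna of photosystem I, 5 LHCB1, 3 LHCB2 and 7 other LHCB genes for the antenna of photosystem II, 12 PSA and 10 PSB genes for subunits of photosystems I and II, and the electron carriers PETC, PETE1 and PETE2. All 46 passed the filter on low counts, as did 18205 genes in all. RNA-seq had been made from entire seedlings, aged 14 days, of a bzip68 mutant and its wild type (wt). Both genotypes had grown on agar (0.8%) with 3% sucrose under 125 µmol of white light per square metre per second, and then received either a mock spray of 0.01% Triton X-100, a detergent, or 5 mM hydrogen peroxide (H2O2) in the same detergent. Each of these 4 groups had 3 samples. Chromatin immunoprecipitation followed by sequencing (ChIP-seq) came from 8-day seedlings carrying bZIP68-FLAG, with GFP-FLAG seedlings as the control, 3 samples each. The mutant allele, the promoter driving either FLAG fusion and the time from spray to harvest are not given in the sources used. Seedlings kept in low light are not analysed here. Nothing in the labels says that the samples of a group came from separate batches of plants, so p-values measure only the spread over the libraries of a group, perhaps a technical one.

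Photosystem II splits water and photosystem I reduces ferredoxin, and the cytochrome b6f complex and plastocyanin carry electrons from one to the other. Antenna proteins bind most of the leaf's chlorophyll and pass excitation to the reaction centres, whose core subunits are largely encoded in the chloroplast. The genes described here are nuclear, and their products are imported. Their transcripts are among the most abundant of green tissue, respond to light, sugar and the circadian clock, and are known to fall when chloroplasts are badly stressed. bZIP68 is a basic leucine zipper factor of group G, a group known to bind the G-box CACGTG, a sequence also found in many light-regulated promoters.

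The libraries held 8997073 to 10262992 counts. BZIP68 itself (AT1G32150) had 74, 82 and 102 counts in mock wt and 2, 1 and 1 in mock bzip68, then 87, 93 and 70 in H2O2 wt and 2, 0 and 2 in H2O2 bzip68, so all libraries followed their genotype labels. The log2 difference was -5.84 in mock and -5.70 in H2O2 plants (edgeR, adjusted p = 2.75e-07 and 4.39e-07). Along a principal component that took 19.0% of the variance, replicate 2 of mock bzip68 was highest, at 42.1. Replicate 2 of H2O2 wt came next, at 34.9. The others of mock bzip68 lay at -27.9 and -5.75, and those of H2O2 wt at -6.20 and 15.0. H2O2 bzip68 was also spread along it, at -29.7, 6.06 and -19.3. Chi-square over its degrees of freedom was 16.2 and 15.8 between H2O2 wt replicate 2 and the others, against 7.60 between those. Replicate 2 of H2O2 wt also had 0.0121% of its counts on chloroplast genes, against 1.05% to 1.54% in the other libraries. Replicate 2 of mock bzip68 and of H2O2 wt are called the pair that stood apart below. The main results that use these libraries are given with and without them.

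The 46 genes took up 12.36% to 12.99% of all counts in mock wt, 13.05% to 13.78% in mock bzip68, 14.31% to 15.46% in H2O2 wt and 12.67% to 15.16% in H2O2 bzip68. In whole seedlings, fewer green cells and less of a transcript per green cell cannot be told apart. CPM, the usual counts scaled to library size, were divided by exon length in kilobases, which allows levels to be compared between genes. On that scale LHCB1.3 (AT1G29930), a major protein of the LHCII trimers, was rank 1 of 18056 genes, with a mean of 19654 CPM per kilobase over the 12 libraries. Its CPM were 21125, 24161 and 21421 in mock wt, 22086, 26633 and 25303 in mock bzip68, 26840, 23147 and 27962 in H2O2 wt, and 24920, 25591 and 20900 in H2O2 bzip68, so the groups overlapped in all 4 comparisons. LHCB1.5, LHCB1.2, PSBR and LHCB1.1 also stood in the first 8, with 13 of the 46 genes in the first 20, 37 in the first 100 and 41 in the first 200.

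At the other end stood LHCB4.3 (AT2G40100), a rarely expressed relative of the CP29 antenna, at rank 11031 with 5.99 CPM per kilobase, and LHCB7 at rank 9677 with 7.69. LHCB4.3 had 7.90, 11.9 and 8.03 CPM in mock wt, 10.1, 13.6 and 7.26 in mock bzip68, 8.76, 6.58 and 13.3 in H2O2 wt, and 5.89, 6.20 and 4.60 in H2O2 bzip68. Its 3 H2O2 bzip68 libraries lay below all others. LHCA5 and LHCA6, which link photosystem I to the NDH complex, stood at 99.0 and 139 CPM per kilobase, between these rare transcripts and the stoichiometric antenna genes LHCA1 to LHCA4 at 2333 to 4379. Of the plastocyanin pair, PETE2 at 2745 CPM per kilobase was far above PETE1 at 195.

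**Figure D1:**
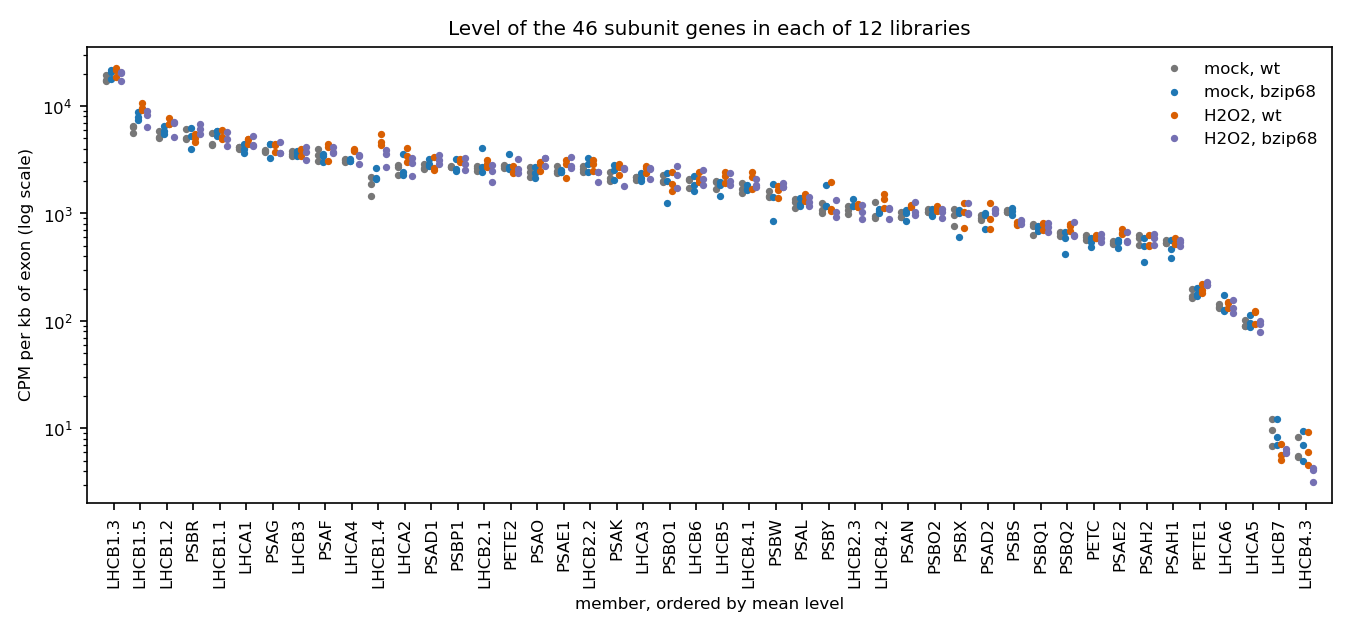
CPM per kilobase of exon (log axis) of the 46 genes, ordered by mean level, with 1 point for each of the 12 libraries coloured by group. LHCB1.3 lies at the top with a mean of 19654 and LHCB4.3 at the bottom with 5.99, and most genes differ far more from each other than between groups.

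The question put to H2O2 against mock plants was how these genes answer a direct oxidative stress. In wt, 2 of the 46 genes rose and 1 fell: LHCB1.4 and LHCB1.5, both encoding LHCII trimer proteins, rose 2.62-fold and 1.59-fold, and PSBS, the sensor of lumen pH that switches on energy dissipation, fell by 0.38 on the log2 scale. The background was 5.02% of all genes tested called higher and 4.72% called lower (edgeR's quasi-likelihood test, adjusted p under 0.05), and 2 and 1 of 46 do not stand above those shares. Without the pair of libraries that stood apart 5 of the 46 were called, with LHCB4.1 higher and LHCB7 lower besides. DESeq2 called 5 in all libraries. Over all genes these settings called 1736 of 18252 and 2010 of 18205, against 1773 of 18205 in the main fit. At an unadjusted p under 0.05 there were 8 higher and 2 lower (21.7%), against 21.9% of all genes. The 46 log2 fold changes had a median of 0.14 with 39 above 0, while all 18205 genes had a median of 0.00 with 50.6% below 0. Without H2O2 wt replicate 2 the median of the 46 was 0.22, and over all single libraries left out it ran from 0.10 to 0.22.

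LHCB1.4 (AT2G34430) had 2479, 2846 and 1910 CPM in mock wt, against 5726, 6119 and 7147 in H2O2 wt. In the mutant it had 2722, 3496 and 2809 CPM in mock and 4659, 5083 and 3545 in H2O2 plants. Its H2O2 libraries lay above the mock libraries of the same genotype in both, and in H2O2 plants the bzip68 libraries lay below the wt libraries. The wt means were 2412 ± 472 and 6331 ± 734 (SD, n = 3), a log2 fold change of 1.39 ± 0.17 (SE, 95% interval 1.02 to 1.76, adjusted p = 7.23e-05 by edgeR).

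LHCB1.5 (AT2G34420) had 5822, 6872 and 6700 CPM in mock wt and 9517, 10094 and 11207 in H2O2 wt. The mutant's CPM were 7766, 9202 and 8309 in mock and 9468, 8653 and 6696 in H2O2 plants. The wt libraries did not overlap between treatments, while those of bzip68 did. In wt the log2 fold change was 0.67 ± 0.14 (SE, 95% interval 0.37 to 0.97, adjusted p = 0.00554 by edgeR), from a mean of 6464 ± 563 to 10273 ± 859 CPM (SD, n = 3). Without H2O2 wt replicate 2 and mock bzip68 replicate 2 the LHCB1.4 and LHCB1.5 values were 1.42 and 0.68, with adjusted p of 5.22e-05 and 0.00506.

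**Figure D2:**
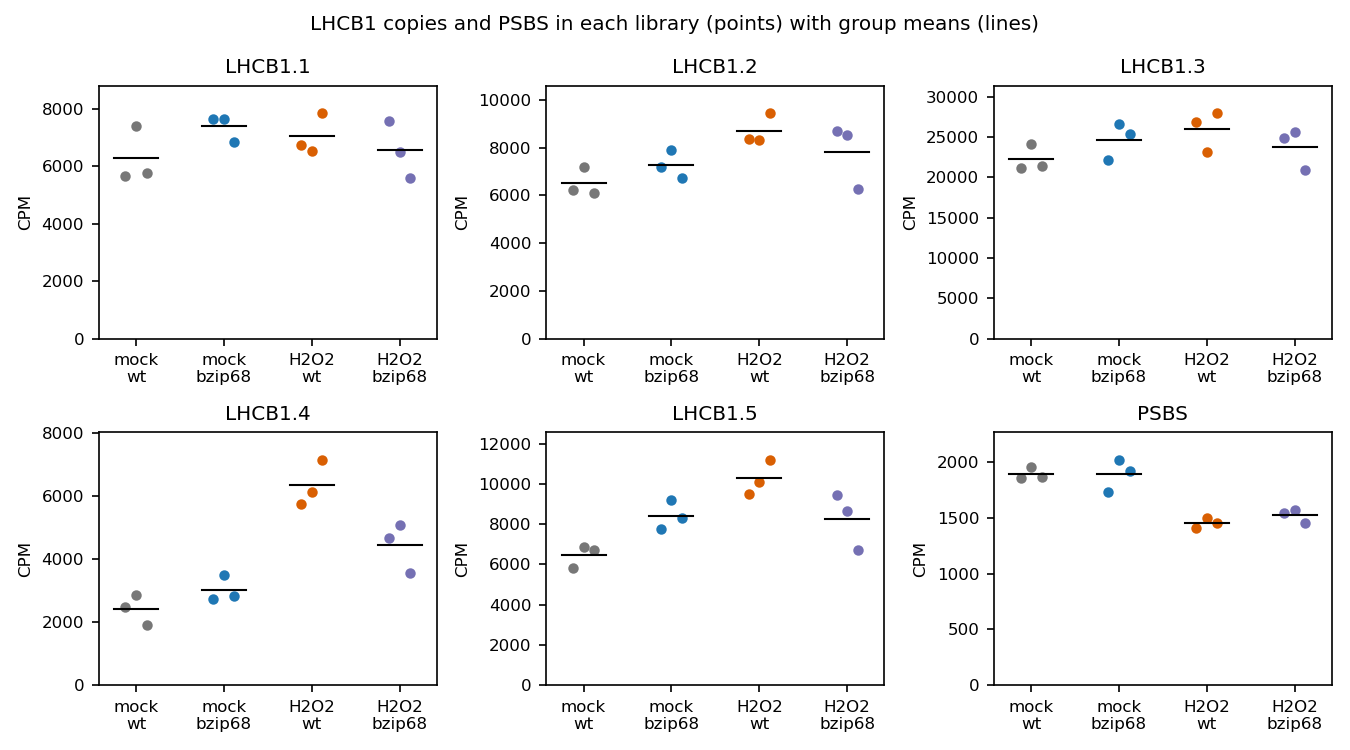
CPM (linear axes from 0) of the 5 LHCB1 copies and PSBS in each of the 12 libraries, with lines for the means of each group of 3. LHCB1.4 runs from 1910 to 2846 CPM in mock wt and from 5726 to 7147 in H2O2 wt, and PSBS is lower in the H2O2 than in the mock libraries of both genotypes.

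LHCB1.4 and LHCB1.5 are neighbours on chromosome 2, transcribed away from each other from starts at 14524607 (plus strand) and 14523568 (minus strand), with 1038 bases between them (TAIR10.1, RefSeq annotation). The sequence just upstream of each is shown because the pair rose together in wt, with that of LHCB1.3, the most abundant and uncalled copy, beside it. Capitals mark ACGT, the core shared by bZIP binding sites, which was searched on both strands (it is its own complement) and lies inside any G-box. Each run is 250 bases long, ends at the base before the RefSeq start, and reads 5′ to 3′ along the gene (LHCB1.4 at chr2:14524357-14524606, plus strand; LHCB1.5 at chr2:14523569-14523818, minus strand; LHCB1.3 at chr1:10477635-10477884, plus strand).
LHCB1.4: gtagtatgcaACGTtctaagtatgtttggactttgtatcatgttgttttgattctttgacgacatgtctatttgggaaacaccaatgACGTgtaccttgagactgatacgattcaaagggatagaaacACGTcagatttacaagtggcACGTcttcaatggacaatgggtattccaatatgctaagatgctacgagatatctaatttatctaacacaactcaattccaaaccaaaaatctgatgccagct
LHCB1.5: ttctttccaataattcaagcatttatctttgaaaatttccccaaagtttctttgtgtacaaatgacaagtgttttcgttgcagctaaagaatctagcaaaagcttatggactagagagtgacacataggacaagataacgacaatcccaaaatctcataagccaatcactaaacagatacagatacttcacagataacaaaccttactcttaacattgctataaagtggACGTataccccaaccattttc
LHCB1.3: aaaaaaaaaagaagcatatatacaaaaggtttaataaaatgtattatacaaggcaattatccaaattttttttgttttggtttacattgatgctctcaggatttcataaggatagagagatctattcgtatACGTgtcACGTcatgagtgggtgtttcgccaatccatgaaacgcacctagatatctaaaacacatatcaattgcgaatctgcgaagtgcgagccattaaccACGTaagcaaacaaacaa
The LHCB1.4 run held 4 ACGT cores, LHCB1.5 held 1 and LHCB1.3 held 3, and none of these formed CACGTG. The authors' ChIP-seq peak list places the starts of LHCB1.4 and LHCB1.3 further downstream, at 14524756 and 10478005, and that of LHCB1.5 at the same base. The cores were not recounted from those starts, so these counts hold for the RefSeq starts only. Over the window from 250 bases before to 50 after the start, 50.9% of the 17908 protein-coding genes tested held an ACGT, so its presence here is common.

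Counts of similar copies can be split by the way reads are assigned, which bears on every LHCB1 and LHCB2 value. LHCB1.1, LHCB1.2 and LHCB1.3 share 95.7% to 96.4% of their coding bases, while LHCB1.4 and LHCB1.5 share 86.8% to 90.4% with those and 91.4% with each other. Of all LHCB1 counts, LHCB1.4 took 4.56% to 6.0% in mock wt, 5.62% to 6.37% in mock bzip68, 10.0% to 11.3% in H2O2 wt and 8.25% to 9.35% in H2O2 bzip68. LHCB1.3 took 49.8% to 51.1% in mock wt and 42.7% to 46.9% in H2O2 wt. Summed over the 5 copies, the wt response was 0.41 ± 0.13 on the log2 scale and did not pass the test (adjusted p = 0.0588 by edgeR), and the bzip68 response was 0.00 ± 0.13.

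The other 3 LHCB1 copies and the 3 LHCB2 copies did not pass the test in wt. LHCB1.2 was at 0.42 on the log2 scale, LHCB1.3 at 0.23 and LHCB1.1 at 0.17. The LHCB2 copies, the LHCII proteins phosphorylated when antenna moves between photosystems, lay at 0.13 to 0.14. Among the genes of the other antenna proteins of photosystem II, LHCB3 to LHCB6 and both abundant LHCB4 copies lay between 0.07 and 0.35, with LHCB4.3 at 0.04 and LHCB7 at -0.68 (adjusted p = 0.0845 by edgeR). In the 6 LHCA genes of the photosystem I antenna all values were above 0, from 0.05 for LHCA6 to 0.44 for LHCA2, with a median of 0.27 and 3 at an unadjusted p under 0.05.

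The subunit genes lay closer to 0. Of the 12 PSA genes 10 lay above 0, with a median of 0.13 and a range of -0.07 to 0.32. The highest was PSAE2, a copy of a stromal subunit near the ferredoxin docking site. Of the 10 PSB genes 7 lay above 0, with a median of 0.08. The genes of the oxygen-evolving complex, PSBO1, PSBO2, PSBP1, PSBQ1, PSBQ2 and PSBR, lay between -0.08 and 0.21. PETC, the Rieske protein of the cytochrome b6f complex, was at 0.00.

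PSBS (AT1G44575) was the 1 gene that fell. Its CPM were 1862, 1961 and 1871 in mock wt and 1408, 1503 and 1457 in H2O2 wt. In bzip68 they were 1734, 2024 and 1919 in mock and 1548, 1576 and 1458 in H2O2 plants. In both genotypes every H2O2 library lay below every mock library. The log2 fold change was -0.38 ± 0.11 in wt (SE, 95% interval -0.61 to -0.15, adjusted p = 0.0339 by edgeR) and -0.31 in bzip68, where it did not pass (adjusted p = 0.105). The wt call was lost when any 1 of the 6 wt libraries was left out (adjusted p of 0.0673 to 0.113) although the value stayed between -0.41 and -0.36.

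In bzip68, none of the 46 genes passed the test between H2O2 and mock plants by edgeR, while 4.11% of all genes were called higher and 3.28% lower. At an unadjusted p under 0.05 there were 3 higher and 4 lower among the 46 (15.2%), against 19.5% of all genes. DESeq2 called 3, LHCB1.4 higher and PSBS and LHCB4.3 lower, and 1587 of all 18205 genes. LHCB1.4 was at 0.56 ± 0.17 on the log2 scale (SE, adjusted p = 0.0620 by edgeR), and LHCB4.3 at -0.88 (adjusted p = 0.0764). Same-numbered mock and H2O2 samples of bzip68 deviated together from their group means. With the replicate number as a block, 2 of the 46 genes passed, LHCB1.4 at 0.55 and LHCB4.3 at -0.87 (adjusted p = 0.0151 and 0.00463 by edgeR). Over all genes that fit called 2401 of 18023, against 1346 of 18205 in the main fit. Without mock bzip68 replicate 2, LHCB1.4 was at 0.68 with an adjusted p of 0.0262, and without H2O2 bzip68 replicate 3 it was at 0.70 with an adjusted p of 0.0388. Leaving out mock bzip68 replicate 1 brought 3 calls, PSAO higher and LHCB2.2 and PSBS lower, with 1753 of all 18246 genes called.

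The median log2 fold change of the 46 genes in bzip68 was 0.09 with 29 above 0, against 0.00 over all genes with 50.1% below 0. By protein group, the wt and bzip68 medians were 0.27 and 0.06 for LHCA, 0.42 and -0.03 for LHCB1, and 0.13 and -0.33 for LHCB2. For the remaining LHCB genes they were 0.15 and 0.01. The subunit genes showed another order, with 0.13 and 0.17 for PSA, 0.08 and 0.17 for PSB, and 0.00 and 0.14 for the PETC and PETE genes. The antenna medians were thus higher in wt, and the subunit and carrier medians higher in bzip68. Without the pair of libraries that stood apart the subunit order turned, to 0.24 and 0.13 for PSA and 0.17 and 0.06 for PSB, while LHCA at 0.27 and 0.13, LHCB1 at 0.45 and 0.04 and LHCB2 at 0.15 and -0.19 kept theirs. With single libraries left out, the bzip68 median of the 46 ran from 0.02 (without H2O2 replicate 1) to 0.17 (without H2O2 replicate 3). The LHCA median ran from -0.01 (without H2O2 replicate 2) to 0.18 (without H2O2 replicate 3), the LHCB1 median from -0.09 to 0.10 and the LHCB2 median from -0.46 to -0.19.

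**Figure D3:**
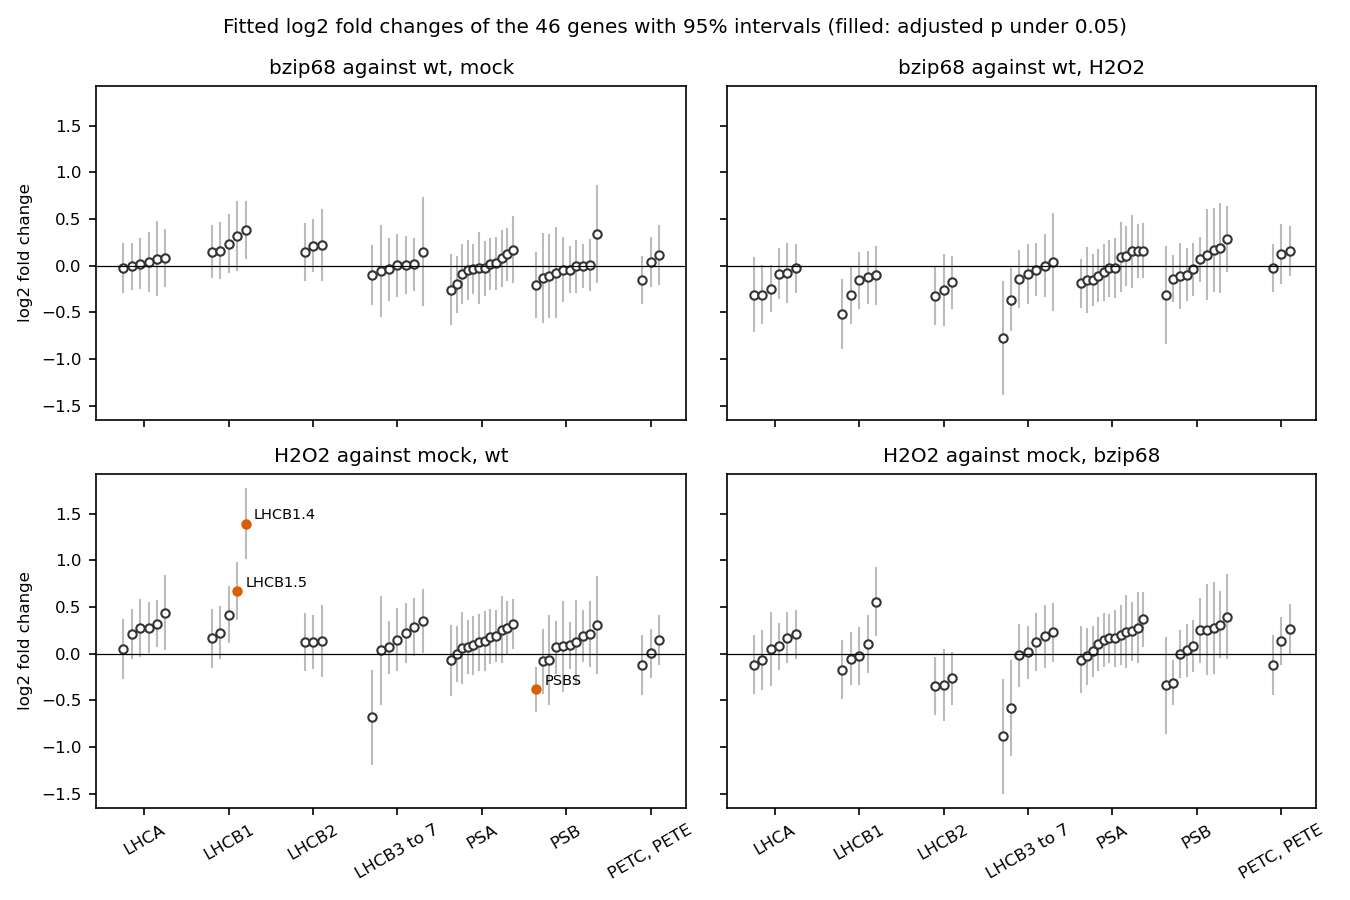
Log2 fold change of each of the 46 genes with its 95% interval, by protein group, in 4 panels for the comparisons of genotypes and of sprays; filled points have an adjusted p under 0.05 by edgeR. LHCB1.4 at 1.39, LHCB1.5 at 0.67 and PSBS at -0.38 in the wt response are the 3 filled points.

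Whether the responses of the genotypes differ was tested by the difference of those log2 fold changes, bzip68 minus wt. None of the 46 genes passed, and of all genes 0% were called by edgeR. At an unadjusted p under 0.05 there were 1178 genes in all (6.47%), and DESeq2 called 24, none of them among the 46. Of the 46 genes 5 (10.9%) lay lower at an unadjusted p under 0.05: LHCB1.4 at -0.83, LHCB1.5 at -0.69, LHCB2.2 at -0.48, LHCB2.3 at -0.39 and LHCB4.3 at -0.92. This count was 2 without mock wt replicate 3, mock bzip68 replicate 2, H2O2 wt replicate 3 or H2O2 bzip68 replicate 3 (4.35%). The shares of all genes in those fits were 5.2%, 5.6%, 4.1% and 3.9%. The count was 4 without the pair that stood apart (8.70%, against 6.44%) and 8 with the replicate number as a block (17.4%, against 9.87%). Leaving out mock bzip68 replicate 1 gave 6 lower and 2 higher (17.4%, against 12.7%). The median over the 46 was -0.10, and it was -0.01 without H2O2 bzip68 replicate 3, -0.05 without H2O2 wt replicate 3 and -0.13 without the pair. The adjusted p by edgeR was 0.668 for LHCB1.4 and 0.639 for LHCB1.5. For LHCB1.4, whose call in wt was not matched by edgeR in bzip68, a difference between genotypes was therefore not shown.

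The comparison of bzip68 with wt asked what loss of bZIP68 did to these genes under either spray. In mock plants none of the 46 passed the test, against 0.0439% of all genes called higher and 0.170% lower. At an unadjusted p under 0.05 there was 1 gene, LHCB1.5 (2.17% of the 46, against 10.1% of all genes), and DESeq2 called none. LHCB1.5 was at 0.38 ± 0.14 (SE, adjusted p = 0.346 by edgeR), and the mutant libraries, at 7766 to 9202 CPM, all lay above the wt libraries at 5822 to 6872. A fit by limma voom with library weights called it, at 0.43 (adjusted p = 0.0269), and called 843 of all 18205 genes. The median over the 46 genes was 0.01 with 25 above 0, the same as the 0.01 over all genes. All 5 LHCB1 copies lay above 0, from 0.15 to 0.38, as did the 3 LHCB2 copies, from 0.15 to 0.22. The LHCB1 median of 0.23 was 0.20 without mock bzip68 replicate 2 and ran from 0.16 to 0.37 with other single libraries left out, the highest without mock wt replicate 2. The LHCB2 median went from 0.21 to 0.04 without mock bzip68 replicate 2. The PSA, PSB and LHCA medians lay between -0.04 and 0.03.

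In H2O2 plants none of the 46 passed either, against 0.0275% of all genes called higher and 0.0439% lower, and DESeq2 again called none. Here 33 of the 46 log2 differences were below 0, with a median of -0.09, while over all genes 49.6% were below 0. At an unadjusted p under 0.05, 7 antenna genes (15.2% of the 46, against 9.23% of all genes) lay lower in bzip68: LHCA4 at -0.25, LHCA5 at -0.31, LHCB1.4 at -0.52, LHCB1.5 at -0.31, LHCB2.2 at -0.33, LHCB4.2 at -0.36 and LHCB4.3 at -0.78. All 6 LHCA, 5 LHCB1 and 3 LHCB2 genes were below 0. The PSB genes split evenly, 5 above 0 and 5 below. H2O2 bzip68 replicate 3 was the lowest of its group for the share of counts on the 46 genes (12.67%, against 14.37% and 15.16%). Without that library the median over the 46 genes was -0.01 and 25 lay below 0. None was then at an unadjusted p under 0.05, against 7.90% of all genes. Without H2O2 wt replicate 3 the median was -0.04 with 1 gene lower at an unadjusted p under 0.05 (2.17%, against 7.15% of all genes). The count of 7 thus rests on both libraries. With the replicate number as a block it was 3 (6.52%, against 12.7%). Without H2O2 wt replicate 2, which stood apart, the median was -0.14 with 36 below 0. Of the 46, 4 were lower at an unadjusted p under 0.05 (8.70%, against 6.81% of all genes). That count was 7 without both libraries that stood apart (15.2%, against 9.40%), and 8 without H2O2 bzip68 replicate 1 (17.4%, against 5.55%). Without H2O2 bzip68 replicate 3 the LHCB1 median went from -0.15 to -0.04 and the LHCA median from -0.17 to -0.07.

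Markers of other organs and of the time of day were followed beside these values. Of 13 root markers, 11 were tested. All 11 log2 differences of mock bzip68 and mock wt were above 0, with a median of 0.57, none called by edgeR and 6 at an unadjusted p under 0.05. Without mock bzip68 replicate 2 this median was 0.28. In the bzip68 response all 11 were below 0 and 4 fell, CASP1, COBL9, EXPA7 and EXPA18, the first a protein of the root endodermis and the others of root hairs. PYK10, a protein of root ER bodies, made up 96.9% to 97.9% of the summed CPM of the 11 markers, which was 3597 to 4087 in mock wt, 3479 to 4701 in mock bzip68, 3174 to 3689 in H2O2 wt and 3068 to 3574 in H2O2 bzip68. The other 10 summed to 83.1 to 104 CPM in mock wt, 107 to 143 in mock bzip68, 79.2 to 103 in H2O2 wt and 67.9 to 87.1 in H2O2 bzip68, so that without PYK10 all mock bzip68 libraries lay above all others. No tested root marker was at 0 throughout. Of 5 shoot epidermis, guard cell and vein markers none was called in any of the comparisons by edgeR in all libraries. Of the senescing leaf markers 2 of 3 were tested. SEN1 rose by 2.40 on the log2 scale in the wt response and was at 0.28 in bzip68, where it was not called. In H2O2 plants it was lower in bzip68, at -2.01 (adjusted p = 0.0122 by edgeR), with 25.1, 24.3 and 23.3 CPM in wt and 7.96, 6.74 and 3.31 in bzip68. Leaving out replicate 2 of H2O2 bzip68, or either of replicates 1 and 3 of H2O2 wt, ended that call. The difference of its responses, -2.13, had an adjusted p of 0.588 by edgeR, and it was called by DESeq2 (adjusted p = 0.00696) and by edgeR with the replicate number as a block (adjusted p = 0.0237). SAG13 was lower in bzip68 in mock plants, at -1.73 (adjusted p = 0.0401 by edgeR), and in H2O2 plants it was at -0.76 and not called. The mock call ended in a fit of the compared groups alone, and when replicate 2 of either genotype, replicate 1 of wt or replicate 3 of bzip68 was left out. The part of organ makeup in the antenna values was not tested.

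Clock genes differed strongly between H2O2 and mock plants. Of 5 morning genes 4 fell in both genotypes, with LHY at -3.29 and -2.89 and CCA1 at -2.16 and -1.80 on the log2 scale in wt and bzip68. All 6 evening genes rose in both, among them ELF4 at 3.70 and 3.44 and TOC1 at 1.72 and 1.60 (edgeR, adjusted p of these 4 genes at most 6.16e-05). LHCB genes are known to cycle under the clock. Whether mock and H2O2 plants were harvested at the same time of day is not given in the sources used here, and the part of the clock in the LHCB1 values was not tested.

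Around the photosystems, genes that act on the same proteins were read from 4 lists. Of 11 electron transport partners and ATP synthase subunits, 1 rose and 1 fell in each genotype. FNR2, which passes electrons from ferredoxin to NADP, was at 0.99 in wt and 1.09 in bzip68, and the ferredoxin gene FD1 at -0.95 and -1.29. The FD1 call in wt was lost without mock wt replicate 2 or H2O2 wt replicate 1 or 2, and with the replicate number as a block. Of 6 thylakoid kinases, phosphatases and xanthophyll cycle enzymes, 2 rose and 1 fell in each genotype. VDE1, which makes zeaxanthin in strong light, went from 49.2, 51.9 and 52.8 CPM in mock wt to 99.6, 104 and 106 in H2O2 wt, a log2 fold change of 1.01 ± 0.11 (SE, adjusted p = 2.41e-05 by edgeR). In bzip68 it rose by 0.65. TAP38, the phosphatase that returns LHCII to photosystem II, rose by 0.68 in wt and 0.57 in bzip68, while ZEP, which reverses VDE1, was at -0.49 and -0.52 and fell in both. PSBS, whose protein works with zeaxanthin in energy dissipation, had the opposite sign to VDE1 in both genotypes.

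Of 7 regulators of nuclear photosynthesis genes, 3 fell in wt. The GATA factor gene CGA1 was at -1.46, its paralog GNC at -0.62 and GUN4, a cofactor of chlorophyll synthesis, at -0.42. When any wt library but mock replicate 2 was left out, CGA1 alone was called, and without mock replicate 2 CGA1 and GUN4 were. In bzip68, GUN4 alone was called, at -0.66 (adjusted p = 0.00331 by edgeR). The list's count there was 2 by DESeq2 and 4 without mock bzip68 replicate 1, and the differences between genotypes did not pass. GLK1 and GLK2, known activators of LHC genes, were called in none of the comparisons by edgeR in all libraries, and both were among those 4 in bzip68. Of 16 genes for assembly, import and repair of the photosystems, 1 rose in wt, cpSRP54, which escorts LHC proteins to the thylakoid (0.42, adjusted p = 0.0398 by edgeR), and none in bzip68. That call was lost when any 1 wt library was left out and with the replicate number as a block. No gene of these 4 lists was called between genotypes.

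The ChIP-seq comparison asked where bZIP68-FLAG was enriched over GFP-FLAG. In the larger of the authors' peak lists, 29 of the 46 genes (63.0%) were assigned a peak, against 22.7% of all genes tested. In their shorter and stricter list it was 10 of 46 (21.7%), against 3.90%. Counting a peak over the start of transcription whichever gene the authors assigned it to, it was 35 (76.1%), against 16.2%. The last count adds LHCA6, LHCB7, PSAD1, PSAE2, PSAH2 and PSBQ1, whose peaks went to the gene next door. No peak of either kind was found at 11 genes, among them LHCB1.1, LHCB1.2, LHCB3, LHCB6, PSBO1 and PSBS.

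Among genes outside the 46, those at the highest levels carried peaks more often. Of the 100 genes with the highest CPM per kilobase, 24 of the 37 that belong to the 46 had a peak. Of the other 63, 28 had one (44.4%). In the next 100 the share of other genes was 34.4%. It was 28.4% at ranks 201 to 500, 32.1% at 501 to 1000 and 28.7% at 1001 to 2000. Below rank 10000 it was 19.7%. These peaks were called on 8-day seedlings, and pooling of the 3 samples per construct is not described in the sources used here. The part of open chromatin at active genes in the peak counts was not tested.

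**Figure D4:**
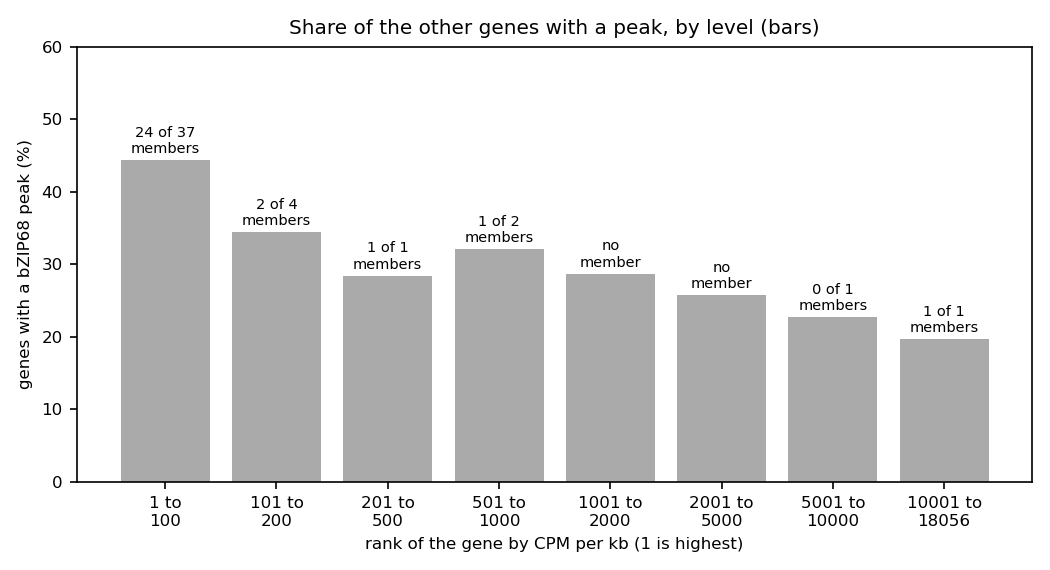
Bars give the percent of genes outside the 46 that were assigned a bZIP68 peak of the larger list, by rank of CPM per kilobase, and the words above each bar give how many of the 46 genes at those ranks had one. The bar is 44.4% at ranks 1 to 100 and 19.7% below rank 10000, without falling at every step between, and 24 of the 37 genes at ranks 1 to 100 had a peak.

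The score of a peak is the authors' own, their rescaled negative log10 p-value, and grows with enrichment over GFP-FLAG. The 30 peaks at these genes (PSAL had 2) had a median score of 235, against 149 over all peaks, and ran from 84.9 at PSAD2 to 661 at LHCB2.3. All 29 genes had a peak within 1000 bases of the start, and for all but the additional PSAL peak it covered the start. LHCB1.4 and LHCB1.5 each had their own, at chr2:14523952-14525123 (score 236) and chr2:14522577-14523840 (score 159), on TAIR10.

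The 10 genes of the shorter list cover antenna and subunits of both photosystems. LHCB2.3 had 1721, 1571 and 1435 CPM in mock wt, 1738, 2017 and 1727 in mock bzip68, 1693, 1674 and 1796 in H2O2 wt, and 1513, 1744 and 1303 in H2O2 bzip68. Its mock bzip68 libraries all lay above its mock wt libraries, by a log2 difference of 0.21 that did not pass (adjusted p = 0.640 by edgeR). LHCB2.2 had 2977, 3142 and 2795 CPM in mock wt, 2768, 3784 and 3326 in mock bzip68, 3272, 2855 and 3602 in H2O2 wt, and 2777, 2755 and 2222 in H2O2 bzip68. In H2O2 plants its bzip68 libraries lay below those of wt.

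Next came PSBR, a small subunit near the oxygen-evolving complex, with 4746, 3974 and 3829 CPM in mock wt, 4930, 3090 and 4147 in mock bzip68, 4283, 3624 and 3950 in H2O2 wt, and 5332, 4840 and 4290 in H2O2 bzip68. Its H2O2 bzip68 libraries all lay above those of H2O2 wt, by 0.29 on the log2 scale, which did not pass. The oxygen-evolving subunit gene PSBP1 had 3708, 3763 and 3665 CPM in mock wt, 3378, 4314 and 3512 in mock bzip68, 4250, 4070 and 4357 in H2O2 wt, and 3952, 4442 and 3476 in H2O2 bzip68. PSBQ2, of the same complex, had 834, 779 and 848 CPM in mock wt, 847, 528 and 754 in mock bzip68, 1006, 872 and 967 in H2O2 wt, and 1050, 802 and 789 in H2O2 bzip68. For PSBP1 and PSBQ2 the wt libraries were higher in H2O2 than in mock without overlap, and the genotypes overlapped under both sprays.

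Of the photosystem I antenna, LHCA4 had 4151, 4095 and 3866 CPM in mock wt, 3970, 4135 and 3951 in mock bzip68, 5034, 4892 and 5192 in H2O2 wt, and 4582, 4448 and 3705 in H2O2 bzip68. Its H2O2 wt libraries lay above all others. LHCA5 had 95.8, 108 and 96.1 CPM in mock wt, 102, 121 and 94.5 in mock bzip68, 99.98, 132 and 131 in H2O2 wt, and 107, 101 and 84.5 in H2O2 bzip68, with overlap in all 4 comparisons.

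PSAH1 and PSAL, subunits of the side of photosystem I where LHCII docks, and PSBX, a small subunit of photosystem II, complete the shorter list. PSAH1 had 686, 743 and 695 CPM in mock wt, 611, 499 and 741 in mock bzip68, 772, 672 and 676 in H2O2 wt, and 704, 641 and 732 in H2O2 bzip68. PSAL had 1275, 1540 and 1467 CPM in mock wt, 1405, 1336 and 1591 in mock bzip68, 1674, 1478 and 1734 in H2O2 wt, and 1608, 1337 and 1459 in H2O2 bzip68. PSBX had 550, 693 and 797 CPM in mock wt, 774, 438 and 725 in mock bzip68, 893, 527 and 736 in H2O2 wt, and 903, 706 and 732 in H2O2 bzip68. All 3 overlapped between groups in the 4 comparisons, and the lowest library of PSAH1 and of PSBX was mock bzip68 replicate 2.

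Log2 fold changes were set side by side for genes with and without a peak by the authors' assignment. The 17 without included LHCA6, LHCB7, PSAD1, PSAE2, PSAH2 and PSBQ1, which had a peak over the start assigned to the neighbour. Between bzip68 and wt the medians in mock plants were 0.01 for the 29 genes with a peak and 0.00 for the 17 without. In H2O2 plants they were -0.11 and -0.04. For the difference of responses they were -0.11 and -0.03, and for the bzip68 response 0.08 and 0.10. None of the 29 genes with a peak was called between genotypes. In the wt response the medians were 0.15 with a peak and 0.14 without, and of the 3 called genes LHCB1.4 and LHCB1.5 had a peak and PSBS had none.

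**Figure D5:**
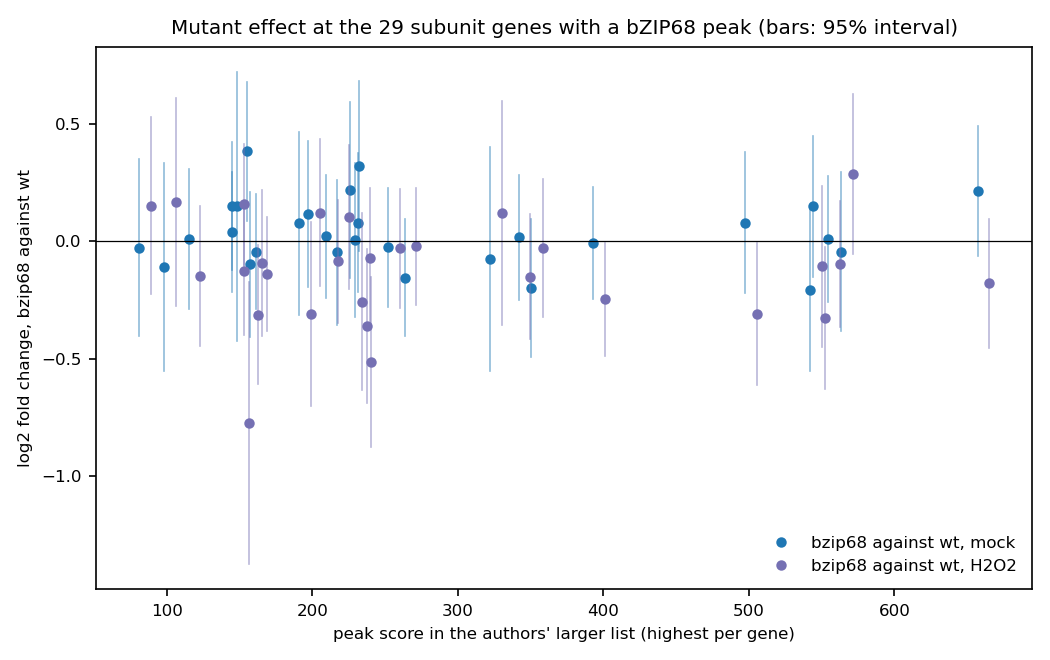
Log2 difference of bzip68 and wt with its 95% interval against the highest peak score of the gene (authors' larger list), for the 29 genes with a peak, in mock and in H2O2 plants, with points set slightly aside so that both show. None of the points passed the test, at low or at high scores.

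Promoters were read from the TAIR10.1 RefSeq genome, from 250 bases before to 50 after the annotated start. The G-box CACGTG, which is its own complement, was in 15 of the 46 (32.6%), against 8.88% of 17908 tested protein-coding genes. By RefSeq starts and the authors' peak assignment, the G-box was in 9 of the 29 with a peak and in 6 of the 17 without. Of these 6, LHCB7, PSAE2, PSAH2 and PSBQ1 had a peak over the start that was assigned to the neighbour. LHCB6 and PSBO1 had neither kind of peak. The G-box counts depend on the start used. By the authors' starts, given with the peaks of the 29 genes, LHCA2 (at -88), LHCA1 (at 4) and PSBP1 also had a G-box inside the window. The 9 genes kept theirs. Those of PSAE1, PSAH1, PSBO2, PSBR and PSBW lay after the RefSeq start but before the authors' start. The shares of all genes were not recounted by those starts. Within 150 bases of a peak's centre the G-box was in 12 of 30 (40.0%), against 31.0% of 5734 nuclear peaks. The shorter core ACGT was in 20 of 30 (66.7%), against 76.6%. The longer form CACGTGGC or its complement GCCACGTG, which contains the G-box, was in 10 promoters (21.7%), against 2.2%. The I-box GATAAG or its complement CTTATC, another element of light-regulated promoters, was in 20 (43.5%), against 15.0%. The sites AAAAATCT and AACAATCT of the clock factor CCA1, on either strand, were in 7 (15.2%), against 10.2%, and the evening element AAATATCT or its complement was in 1 (2.17%), against 6.13%. A match is a description of letters in this window, and no binding is read from it.

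The runs around the G-boxes of 7 genes are shown because they stand for the 3 situations: an own peak (LHCA4, LHCB2.3, PSBQ2), a peak assigned to the neighbour (PSAE2, PSAH2, PSBQ1) and none (LHCB6, the CP24 antenna gene). Capitals mark CACGTG. All read 5′ to 3′ along the gene, upstream of the RefSeq start, at chr3:17495089-17495148, minus strand, chr3:10255791-10255850, plus strand, chr4:2673288-2673415, minus strand, chr2:8736644-8736703, plus strand, chr1:19454704-19454797, plus strand, chr4:11334242-11334329, plus strand and chr1:5447972-5448031, minus strand, in that order (TAIR10.1).
LHCA4: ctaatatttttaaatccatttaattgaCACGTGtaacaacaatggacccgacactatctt
LHCB2.3: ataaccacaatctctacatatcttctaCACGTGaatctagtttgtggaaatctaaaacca
PSBQ2: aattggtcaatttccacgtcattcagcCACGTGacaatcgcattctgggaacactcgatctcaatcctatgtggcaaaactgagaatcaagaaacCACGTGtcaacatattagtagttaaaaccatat
PSAE2: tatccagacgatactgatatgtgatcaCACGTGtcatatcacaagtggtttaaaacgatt
PSAH2: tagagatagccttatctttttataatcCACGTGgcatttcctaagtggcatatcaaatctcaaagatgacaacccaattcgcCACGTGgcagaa
PSBQ1: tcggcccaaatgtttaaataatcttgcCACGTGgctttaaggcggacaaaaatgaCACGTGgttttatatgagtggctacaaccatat
LHCB6: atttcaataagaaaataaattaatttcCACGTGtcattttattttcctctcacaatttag
Counted to the third base of the motif, the G-boxes of LHCA4 and LHCB2.3 both lay 86 bases before the start, that of PSAE2 61 and that of LHCB6 122. PSBQ2, PSAH2 and PSBQ1 carried 2 each. PSAH2, PSBQ1 and PSBQ2 held the longer form, CACGTGGC or GCCACGTG.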

How the data were processed

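The authors deposited whole-number counts per gene in 1 table. Per the submitters' processing notes, the build was TAIR10 and the tools were ChIPseeker, MACS 1.4.3, TopHat2 2.1.0 and RSEM 2.1.30, with no roles given. Rounding of the counts from estimates is not described. The table had 6 further per-sample columns that match no label and were not used. Groups came from the labels. A fit over every RNA sample had been planned, and 12 libraries could be used. The genes, lists and rules were chosen with earlier results of these data known. By the rule for named genes, BZIP68 came first. Values in every sample were given for up to 8 called members per contrast, the members of the shorter peak list, the 4 with the highest peak scores, and the highest and lowest by level. Other lists gave up to 3 called genes per contrast.

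After filterByExpr (18205 genes) and TMM scaling, counts were tested with edgeR 4.0.16 (quasi-likelihood, robust, 1 mean per group) in 5 contrasts, with Benjamini-Hochberg adjustment over all genes and calls at adjusted p under 0.05. Standard errors (SE) of log2 fold changes were worked out from each F statistic, and CPM errors are SD over 3 libraries. Replicates of a group differed by more than counting error in all pairs (chi-square over its degrees of freedom at least 6.06). In simulated counts for bzip68 against wt in mock plants (18041 genes), 90 of 100 genes changed 2-fold, 99 of 100 changed 4-fold and 12 of 17841 unchanged genes were called. The simulation gave all genes the same dispersion and let no library stand apart, so these counts do not give the recovery in the real libraries. Same-numbered mock and H2O2 bzip68 samples deviated together (correlations 0.37, 0.49 and 0.18), so the numbers were taken to pair them, which the labels do not state. In no other comparison did all 3 pairs exceed 0.1. The alternatives were DESeq2 1.42.0, limma voom 3.58.1 with library weights, another scaling, no filter, no organelle genes, summed copies, fewer groups, a replicate block and left-out libraries.

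The authors deposited a score per peak, their rescaled negative log10 p-value against GFP-FLAG as input, and the shorter list was limited by an adjusted p-value and by distance to the start, per the file headers. Peak positions and gene assignments are the authors' own on TAIR10. The authors assigned peaks to 5412 nuclear genes, of which 5265 matched the TAIR10.1 RefSeq annotation by identifier, and all of these overlapped the authors' position, 2118 with an equal start or end, so sequences were read from that genome. Versions were R 4.3.3, Python 3.11.15 and Biopython 1.88.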

Additional observations from a re-analysis of the deposited data

Results flagged for a closer look

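LHCB1.5 lay above wt in all mock bzip68 libraries and below wt in all H2O2 bzip68 libraries, so its difference between genotypes pointed in opposite directions under the 2 sprays. The difference of the differences was -0.69 on the log2 scale and did not pass the test (edgeR, adjusted p = 0.639). It was picked out because no sample of one group overlapped the other. In H2O2 plants that gap was narrow, with 9468 CPM in bzip68 replicate 1 against 9517 in wt replicate 1. These CPM include TMM scaling, and overlap without that scaling was not examined. Across both sprays, H2O2 bzip68 replicate 3 was the lowest mutant library for this gene, at 6696 CPM.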

How the results depend on the processing

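The wt rises of LHCB1.4 (1.25 to 1.53 on the log2 scale) and LHCB1.5 (0.60 to 0.73) passed the test in all 14 alternatives in which they were separate genes. PSBS passed in 8 of 15; with the replicate block it was at -0.38 (adjusted p = 0.0754). In wt, 3 genes were called with the block, 5 by DESeq2, 9 by limma voom with library weights and 6 in a fit of the compared groups alone. The count was 5 without both libraries that stood apart, 1 with the LHCB1 and LHCB2 copies summed, and 2 to 3 with single libraries left out. Over all genes, at least 18051 tested, the wt calls moved too. They were 1773 in the main fit, 1658 with the block, 2010 by DESeq2, 2938 by limma voom and 2102 in the compared groups alone. Without both libraries they were 1736, with copies summed 1770, and with single libraries left out 1126 to 1544. In bzip68, where the main count was 0, it was 2 with the replicate block, 3 by DESeq2 and 3 by limma voom. It was 1 without both libraries that stood apart, and 0 to 3 with single libraries left out. Over all genes, at least 18023 tested, the bzip68 calls were 1346 in the main fit, 2401 with the block, 1587 by DESeq2 and 2358 by limma voom. They were 1133 without both libraries and 719 to 1753 with single libraries left out. Between genotypes in mock plants limma voom called 1 gene, LHCB1.5 (0.43, adjusted p = 0.0269), and the other 14 alternatives called 0. Over all 18205 genes limma voom called 843 there, against 39 in the main fit. In H2O2 plants all 15 alternatives called 0, as did all 20 for the difference of responses, block included. BZIP68 stayed called in all of 15 alternatives under either spray. The number of genes with a peak was 10 in the shorter list, and ACGT alone was found in 30 promoters. Of 720 counts over the other gene lists, an alternative added after seeing the data, 39 moved by over 1.5 times; limma voom called 3 root markers in mock bzip68 and 1 shoot marker in the wt response. The cause was not tested.

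With 3 libraries per group, small differences could not be shown, and LHCB4.3 and LHCB7, with few counts, least of all. How reads of similar LHCB1 and LHCB2 copies were assigned is not given in the sources used here. The RNA and ChIP seedlings differed in age.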
